A study of Mus musculus with 36 samples.

Results

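The genes described here are 30 messengers of the mouse brain known to bind FMRP, the RNA-binding protein that is lost in fragile X syndrome. They were taken by symbol from the deposited count table, with the condition that a gene held at least 10 counts summed over the 36 libraries. All 30 met that condition, out of 78298 gene identifiers in the table, and all 30 were among the 21172 genes that passed the low-count filter and were tested. The symbols were chosen for their known binding, with earlier results of these data known.

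FMRP is made from Fmr1. It sits on polyribosomes, mostly on the coding part of long neuronal messengers, and holds back their translation until synaptic activity releases it. Its known messengers encode proteins of both sides of the synapse, ion channels, motor and cytoskeletal proteins, and components of the mTOR pathway through which metabotropic glutamate receptors drive local protein synthesis. RNA abundance was measured here, and neither translation nor protein.

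Bulk RNA from hippocampal tissue was sequenced in 36 mice, 3 males and 3 females in each of 6 groups: Fmr1 knockout (KO) mice given cannabidiol (CBD) or vehicle, Shank3 KO mice given CBD or vehicle, and wild-type (WT) mice given CBD or vehicle. Shank3 encodes a postsynaptic scaffold protein, and CBD is a non-intoxicating plant cannabinoid. All mice, the vehicle groups included, were injected under the skin for 7 days, with CBD at 5 mg/kg in males and 50 mg/kg in females, so that sex and dose cannot be told apart among treated mice. Strain, age, knockout allele, litter and the composition of the vehicle are not stated in the sources used here, nor whether a knockout was made in all cells.

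Total counts ran from 11655697 to 33228089 per library, the lowest in Shank3 KO vehicle replicate 2. Levels are given as CPM, counts per 1000000 counts of the library after scaling. The Fmr1 KO groups held 40.0 ± 5.09 CPM of Fmr1 under CBD and 41.1 ± 2.89 CPM under vehicle, while the 4 other groups averaged 68.8 to 73.9 CPM (SD, n = 6 each). The Shank3 KO groups held 176 ± 22.7 CPM of Shank3 under CBD and 168 ± 8.75 CPM under vehicle, while the 4 other groups averaged 255 to 279 CPM. Counts covered whole genes with their introns, so the counts that remained in a knockout do not measure intact messenger.

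Every library held markers of hippocampal neurons: the summed level was 219 to 878 CPM for 7 of 7 dentate granule neuron markers, 173 to 624 CPM for 5 of 5 CA1 markers and 576 to 1068 CPM for 6 of 6 CA3 markers. Summed markers of neighbouring tissue varied, at 15.7 to 2819 CPM for 6 of 7 choroid plexus markers and 251 to 1717 CPM for 8 of 8 striatum markers. Single genes weighed heavily in such sums. Averaged over the 36 libraries, Ttr of the choroid plexus list held 778 CPM, Pde10a of the striatum list 518 CPM and Nptx1 of the CA3 list 448 CPM. The striatum markers Drd1 and Drd2 held 8.37 and 3.48 CPM. In bulk tissue, fewer cells of a type and less RNA per cell cannot be told apart.

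In 5 libraries, genes that span at least 200 kb were low against shorter genes. Each gene was set against its mean log2 level in WT vehicle libraries, and the median of the long genes minus that of the shorter ones was -0.65 in WT CBD replicate 1, -0.44 in Fmr1 KO CBD replicate 5, -0.40 in WT vehicle replicate 6, -0.34 in WT vehicle replicate 4 and -0.21 in Shank3 KO CBD replicate 6, leaving the members out. The other 31 libraries lay between -0.13 and 0.36. The 3 CBD libraries among the 5 were all from males. In the order given, the 5 libraries held 251, 327, 273, 373 and 372 CPM of summed striatum markers, the lowest such sums of the 36 libraries. The next lowest, Fmr1 KO CBD replicate 6, also held 373 CPM. Pde10a alone averaged 518 CPM in that list, and the lengths of the marker genes were not taken into account. Whether these sums reflect gene length or tissue make-up was not tested. Counts of members are given with and without these libraries, an alternative chosen after seeing the data. Values without them are given for some single members only, and others turn on these libraries too. RNA quality values are not stated in the sources used here.

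Stretches of the coding sequences are shown for 8 members, because FMRP occupies coding sequence and because the tetramers AGGA and TGGA have been reported as preferred by FMRP in a human cell line. For each gene the 60 bases within 1 coding exon that hold the most such tetramers are printed 5′ to 3′ along the coding strand, with the tetramers in capitals. They come from the transcripts of the GENCODE annotation on build GRCm38. Map1b is the classical FMRP messenger, App and Dlg4 are synaptic messengers that FMRP is known to regulate, and Kif1a and Huwe1 held the densest stretches of the set, with Bsn of the active zone beside them. Adcy1 and Nrxn2 had the smallest p-values in the comparisons that follow.
Map1b: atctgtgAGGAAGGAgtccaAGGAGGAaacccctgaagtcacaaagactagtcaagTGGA
App: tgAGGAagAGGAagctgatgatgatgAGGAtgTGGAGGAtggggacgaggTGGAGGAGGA
Dlg4: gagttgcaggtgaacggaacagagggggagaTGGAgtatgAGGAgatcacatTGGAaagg
Huwe1: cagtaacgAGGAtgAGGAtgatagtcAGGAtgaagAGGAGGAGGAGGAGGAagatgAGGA
Kif1a: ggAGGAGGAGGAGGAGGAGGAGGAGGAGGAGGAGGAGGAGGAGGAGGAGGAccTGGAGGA
Bsn: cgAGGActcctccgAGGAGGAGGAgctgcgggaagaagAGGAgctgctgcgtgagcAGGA
Adcy1: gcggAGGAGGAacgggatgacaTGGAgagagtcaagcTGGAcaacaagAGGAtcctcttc
Nrxn2: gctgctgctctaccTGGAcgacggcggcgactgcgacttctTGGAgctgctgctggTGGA
The stretches lie at chr13:99434488-99434547, minus strand (Map1b), at chr16:85056419-85056478, minus strand (App), at chr11:70030595-70030654, plus strand (Dlg4) and at chrX:151907015-151907074, plus strand (Huwe1). Those of the other genes lie at chr1:93051484-93051543, minus strand (Kif1a), at chr9:108115352-108115411, minus strand (Bsn), at chr11:7160206-7160265, plus strand (Adcy1) and at chr19:6428240-6428299, plus strand (Nrxn2).

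The densest stretch in Kif1a held 18 overlapping or separate tetramers, and 0.0069% of 14498 tested genes with a coding sequence had at least as many in some window of 60 bases within 1 coding exon. Huwe1 held 9 (1.29% of genes), App 8 (2.04%), Bsn 6 (8.57%), Map1b and Adcy1 5 each (22.8%), and Nrxn2 and Dlg4 3 each (84.8%). These shares include the members themselves. A longer coding sequence holds more windows, and the shares were not matched for length. Over the whole coding sequence the members were not richer in the motif than other genes. Their median was 15.0 tetramers per kb against 16.3 per kb over all 14498 genes, and 10 of 30 members lay above that. What set the coding sequences apart was length, with a median of 5252 bases for the members against 1440.0 for all genes, and 29 of 30 members above it. Matches were counted on the coding strand only, and a match is a string of letters and not a binding site.

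Levels per kb of gene differed 361-fold between the highest and the lowest member. Camk2a, the alpha subunit of the calcium-dependent kinase that is a main protein of the postsynaptic density, was the highest at 47.9 CPM per kb of gene averaged over the 36 libraries. Map1b, which binds microtubules, followed at 21.6 and Dlg4, the scaffold PSD-95, at 17.4 CPM per kb. The lowest levels were those of Rptor (0.495 CPM per kb), which recruits substrates to mTOR complex 1, of Pik3cb (0.397), a catalytic subunit of PI3 kinase, and of Agap2 (0.133), a GTPase that enhances PI3 kinase. Reads of Ppp2ca, which overlapped other annotated genes over 100% of its length, and of Nlgn3 (82.8%) may have been split or dropped by the authors' counting, and their values are uncertain.

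Members also differed in how steady they were between mice of one group. The within-group SD of the log2 level was 0.0781 for App, 0.0861 for Nf1 and 0.0940 for Huwe1, which were the steadiest. It was 0.548 for Kcnt1, 0.408 for Kcnd2 and 0.391 for Agap2, which were the least steady.

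Fmr1 KO mice were first compared with WT mice under vehicle, which asks whether the abundance of these messengers differs between these groups of mice. None of the 30 members passed an adjusted p of 0.05 in edgeR's quasi-likelihood test. Over all 21172 genes tested, 0.0283% were called, which were 6 genes, and 475 had an unadjusted p under 0.05. The called genes included Ide, Btaf1 and Fgfbp3, at 1.15, 0.83 and 0.90. In Shank3 KO against WT mice under vehicle the same genes were called at 1.11, 0.79 and 1.02. WT mice thus differed from both KO lines in genes other than the targeted ones. Loss of FMRP and other differences from the WT mice cannot be told apart in this comparison. No member had an unadjusted p under 0.05, and none was called by DESeq2 or limma voom. The members' log2 fold changes ran from -0.15 (Kcnt1) to 0.26 (Kcnd2), with a median of 0.02 against 0.00 over all genes, and 17 of 30 lay above 0 against 50.5% of all genes. Without the 5 libraries low in long genes the median was 0.02, with 18 of 30 above 0, 0 called and 1 member, Ppp2ca, at an unadjusted p under 0.05. Without Fmr1 KO vehicle replicate 3 the median was -0.01. The 95% interval reached beyond 1 in either direction for 0 members and stayed within 0.5 of 0 for 26 of 30. No member had its 6 Fmr1 KO libraries all above or all below the 6 WT libraries, which was the case for 0.128% of all genes.

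The same WT vehicle libraries were compared with Shank3 KO mice under vehicle, a knockout of a scaffold and not of an RNA-binding protein. Again 0 of 30 members were called by edgeR, with 0.0378% of all genes called, and 0 by DESeq2 or limma voom. Adcy1 was the single member with an unadjusted p under 0.05, against 1193 of all genes. The log2 fold changes ran from -0.49 (Adcy1) to 0.29 (Nlgn1), with a median of -0.04 against 0.00 over all genes, and 11 of 30 lay above 0 against 49.9% of all genes. Without the 5 libraries the median was -0.04, with 8 of 30 above 0, and with the mean levels of 5 tissue marker lists as covariates, which are described with Adcy1, it was 0.01, with 16 of 30 above 0. The interval stayed within 0.5 of 0 for 24 of 30. No member separated the libraries of the genotypes completely, as 0.279% of all genes did.

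Compared with each other, Fmr1 KO and Shank3 KO mice under vehicle had 0 of 30 members called between them by edgeR, with 0.00945% of all genes called, and 0 by DESeq2 or limma voom. The members' median was 0.04 against 0.00 over all genes, and 24 of 30 lay above 0 against 49.6% of all genes. With the tissue marker covariates the median was 0.01 and 16 of 30 lay above 0. None of the 5 libraries low in long genes belongs to these groups, but with them left out of the fit Ppp2ca also had an unadjusted p under 0.05. Values ran from -0.33 (Kcnt1) to 0.57 (Adcy1), and the interval stayed within 0.5 of 0 for 25 of 30. Adcy1 was also the only member whose libraries did not overlap between the lines, which was so for 0.345% of all genes. Both KO lines were set against 1 group of WT mice, so the 3 comparisons share libraries and are not independent of each other.

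**Figure D1:**
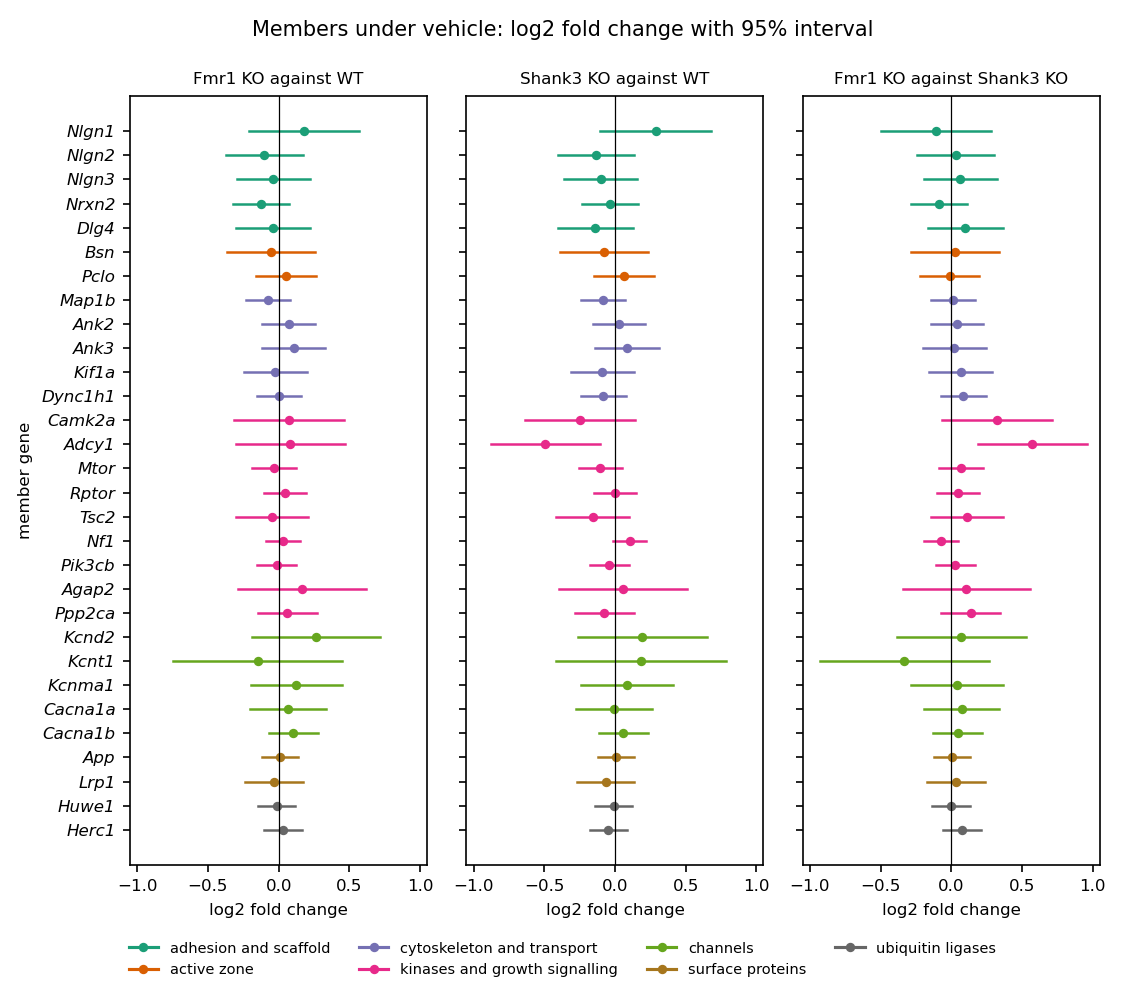
Log2 fold change (x axis) of the 30 members (y axis, coloured by role) under vehicle in Fmr1 KO against WT, Shank3 KO against WT and Fmr1 KO against Shank3 KO mice, with 6 libraries a group. Points are edgeR estimates and lines 95% intervals; Adcy1 has the intervals farthest from 0, at -0.49 in Shank3 KO against WT mice and 0.57 in Fmr1 KO against Shank3 KO mice.

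The synaptic adhesion genes and their scaffold were followed first. Neuroligins are postsynaptic adhesion proteins that bind presynaptic neurexins: neuroligin 1 (Nlgn1) acts at excitatory, neuroligin 2 (Nlgn2) at inhibitory and neuroligin 3 (Nlgn3) at both kinds of synapse, and Nrxn2 encodes a neurexin. Nlgn1 ran from 1839 to 2533 CPM (median 2242) in Fmr1 KO, from 2116 to 2795 CPM (median 2407) in Shank3 KO and from 1132 to 2726 CPM (median 2130.0) in WT mice under vehicle. The groups overlapped, and the widest range was that of the WT mice, whose lowest values came from replicates 6 and 4. Its log2 fold changes were 0.18 (95% interval -0.21 to 0.57) in Fmr1 KO mice and 0.29 (-0.10 to 0.68) in Shank3 KO mice against WT. They were -0.04 and 0.07 in that order without the 5 libraries low in long genes. Nlgn2 and Nlgn3 were at -0.10 and -0.04 in Fmr1 KO against WT mice, and at -0.13 and -0.10 in Shank3 KO against WT mice. Leaving out the 5 libraries put them at 0.02 and 0.08 in Fmr1 KO, and at -0.01 and 0.01 in Shank3 KO against WT mice.

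Nrxn2 had the smallest p of all members in Fmr1 KO against WT mice under vehicle, although far from the threshold. It ran from 262 to 306 CPM (median 296) in Fmr1 KO, from 272 to 344 CPM (median 314) in Shank3 KO and from 290.0 to 366 CPM (median 314) in WT mice. Of the 6 Fmr1 KO libraries 2 lay below every WT library and 4 in the lower part of the WT range. Against WT mice its log2 fold change was -0.12 (SE 0.0971, unadjusted p = 0.210, edgeR adjusted p = 1) in Fmr1 KO mice and -0.03 in Shank3 KO mice. Dlg4 ran from 431 to 612 CPM (median 506) in Fmr1 KO, from 404 to 583 CPM (median 484) in Shank3 KO and from 451 to 611 CPM (median 528) in WT mice. Its groups overlapped over most of their ranges, with log2 fold changes of -0.04 (-0.30 to 0.22) in Fmr1 KO mice against WT, -0.14 (-0.40 to 0.12) in Shank3 KO mice against WT and, between the lines, 0.10 (-0.16 to 0.36).

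Bassoon (Bsn) and piccolo (Pclo) are the giant scaffold proteins of the presynaptic active zone. Bsn was at -0.06 and Pclo at 0.05 in Fmr1 KO against WT mice, and at -0.08 and 0.06 in Shank3 KO against WT mice. Without the 5 libraries low in long genes, 0 of these 2 genes lay above 0 in either comparison, with medians of -0.04 and -0.05. Between the lines Bsn was at 0.02 (-0.29 to 0.33) and Pclo at -0.01 (-0.22 to 0.20).

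Of the 5 cytoskeletal and transport genes, Map1b ran from 1643 to 2274 CPM (median 2012) in Fmr1 KO, from 1852 to 2190.0 CPM (median 1918) in Shank3 KO and from 1965 to 2211 CPM (median 2106) in WT mice under vehicle. The WT range lay inside that of the Fmr1 KO mice. Map1b had log2 fold changes of -0.07 (-0.23 to 0.08) in Fmr1 KO mice and -0.09 (-0.24 to 0.07) in Shank3 KO mice against WT, and 0.01 (-0.14 to 0.17) between the lines. These intervals are narrower than those of most members. Ankyrins B (Ank2) and G (Ank3), which anchor membrane proteins to spectrin, were at 0.07 and 0.11 in Fmr1 KO and at 0.03 and 0.08 in Shank3 KO against WT mice. Kif1a, a kinesin that carries synaptic vesicle precursors, and Dync1h1, the heavy chain of dynein, were at -0.02 and 0.00 in Fmr1 KO and at -0.09 and -0.08 in Shank3 KO against WT mice. Of these 5 genes, 3 lay above 0 in Fmr1 KO and 2 in Shank3 KO against WT mice. Without the 5 libraries low in long genes it was 3 and 0, with medians of 0.00 and -0.05.

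Among kinases and growth signalling, Adcy1 stood out in the Shank3 KO vehicle group. It encodes a calcium-stimulated adenylyl cyclase that makes cyclic AMP at synapses. Adcy1 ran from 904 to 1405 CPM (median 1120.5) in Fmr1 KO, from 685 to 902 CPM (median 711) in Shank3 KO and from 756 to 1267 CPM (median 1146) in WT mice. The lowest Fmr1 KO library, at 904 CPM, lay just above the highest Shank3 KO library, at 902 CPM, while the WT group overlapped both. Adcy1 had a log2 fold change of -0.49 (SE 0.189, unadjusted p = 0.0142, edgeR adjusted p = 0.853) in Shank3 KO against WT mice and of 0.57 (SE 0.189, unadjusted p = 0.00493, edgeR adjusted p = 0.869) in Fmr1 KO against Shank3 KO mice, with 95% intervals of -0.88 to -0.11 and 0.19 to 0.96. In Fmr1 KO against WT mice it was 0.08 (-0.30 to 0.47). Without the 5 libraries low in long genes it was -0.43 (unadjusted p = 0.0377) in Shank3 KO against WT mice and 0.58 (unadjusted p = 0.00304) between the lines, by the same edgeR test.

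By group median, the dentate granule marker sum was lowest and the striatum marker sum highest in Shank3 KO mice among the vehicle groups. The summed level of 7 of 7 dentate granule neuron markers was 413 to 758 CPM in Fmr1 KO, 363 to 551 CPM in Shank3 KO and 478 to 761 CPM in WT vehicle libraries. That of 8 of 8 striatum markers was 437 to 829 CPM in Fmr1 KO, 527 to 1692 CPM in Shank3 KO and 273 to 689 CPM in WT vehicle libraries. The 1692 CPM was that of Shank3 KO vehicle replicate 2, with 973 CPM the next highest in that group. The 273 CPM was that of WT vehicle replicate 6, a library low in long genes. A correlation of Adcy1 with the marker sums was not computed. With the mean levels of 5 marker lists (choroid plexus, striatum, thalamus and habenula, dentate granule neuron, oligodendrocyte) as covariates, the log2 fold change of Adcy1 was -0.17 (unadjusted p = 0.166, edgeR) in Shank3 KO against WT mice and 0.31 (unadjusted p = 0.0156) in Fmr1 KO against Shank3 KO mice. The part of the markers in the Adcy1 values was not tested beyond that.

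Camk2a had the second-smallest p between the lines. It ran from 2239.8 to 4031 CPM (median 3219) in Fmr1 KO, from 2023 to 3251 CPM (median 2551) in Shank3 KO and from 2101 to 3352 CPM (median 3245) in WT mice under vehicle. The Shank3 KO group reached least high, but all groups overlapped. Its log2 fold change between the lines was 0.32 (SE 0.191, unadjusted p = 0.102, edgeR adjusted p = 0.869), and against WT mice it was 0.08 in Fmr1 KO mice and -0.25 in Shank3 KO mice. With the tissue marker covariates it was -0.04 between the lines.

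Mtor, the kinase itself, ran from 141 to 176 CPM (median 144) in Fmr1 KO, from 129.6 to 153 CPM (median 142) in Shank3 KO and from 141 to 164 CPM (median 150.1) in WT mice. A single Fmr1 KO library stood above the others, and the ranges overlapped. The log2 fold changes against WT were -0.03 (-0.19 to 0.12) in Fmr1 KO mice and -0.10 (-0.26 to 0.05) in Shank3 KO mice. In Fmr1 KO mice against WT, Rptor was at 0.05, Tsc2, the GTPase-activating subunit that restrains mTOR complex 1, at -0.05, Pik3cb at -0.01 and Agap2, with 2.37 CPM on average, at 0.16. In Shank3 KO mice against WT they were at 0.00, -0.16, -0.04 and 0.06 in that order.

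Nf1, which encodes the Ras inhibitor neurofibromin, ran from 335 to 417 CPM (median 357) in Fmr1 KO, from 369 to 422 CPM (median 374) in Shank3 KO and from 341 to 373 CPM (median 359) in WT mice. Of the 6 Shank3 KO libraries 4 lay above every WT library. It had a log2 fold change of 0.03 in Fmr1 KO mice and of 0.10 (SE 0.0586, unadjusted p = 0.0884, edgeR adjusted p = 0.853) in Shank3 KO mice against WT. Ppp2ca, the catalytic subunit of protein phosphatase 2A, ran from 191 to 248 CPM (median 194) in Fmr1 KO, from 181 to 192 CPM (median 187) in Shank3 KO and from 172 to 235 CPM (median 188) in WT mice. The Fmr1 KO and Shank3 KO ranges touched, and the log2 fold change between the lines was 0.14 (-0.07 to 0.35). In Fmr1 KO against WT mice it was 0.06 with all libraries and 0.18 (unadjusted p = 0.0187, edgeR) without the 5 low in long genes.

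Kcnt1 and Kcnd2, both potassium channel genes, had the widest intervals of the set. Kcnd2, the A-type potassium channel Kv4.2, ran from 1525 to 2343 CPM (median 1759) in Fmr1 KO, from 1445 to 2378 CPM (median 1696) in Shank3 KO and from 899.8 to 2239 CPM (median 1514) in WT mice. Of the 6 WT libraries 3 lay below every KO library of either line, replicates 6 and 4 lowest. Its log2 fold change against WT was 0.26 (SE 0.223, unadjusted p = 0.244, edgeR adjusted p = 1) in Fmr1 KO mice and 0.19 in Shank3 KO mice. It was 0.02 and -0.06 in that order without the 5 libraries low in long genes. Kcnt1, the sodium-activated potassium channel Slack that FMRP is known to bind as a protein too, ran from 23.3 to 77.4 CPM (median 38.2) in Fmr1 KO, from 42.8 to 70.4 CPM (median 50.3) in Shank3 KO and from 24.8 to 69.4 CPM (median 43.8) in WT mice. All groups overlapped, and a single Fmr1 KO library stood above the other 5. With log2 fold changes against WT of -0.15 (-0.75 to 0.45) in Fmr1 KO mice and 0.18 (-0.41 to 0.78) in Shank3 KO mice, its direction was not resolved at this spread.

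The calcium-activated potassium channel gene Kcnma1 was at 0.13 in Fmr1 KO mice and 0.08 in Shank3 KO mice against WT. Cacna1a and Cacna1b encode the pore subunits of the presynaptic P/Q-type and N-type calcium channels. Cacna1a was at 0.07 in Fmr1 KO mice and at -0.01 in Shank3 KO mice against WT. Cacna1b ran from 261 to 294 CPM (median 277) in Fmr1 KO, from 248 to 295 CPM (median 263) in Shank3 KO and from 214 to 278 CPM (median 263) in WT mice. The Fmr1 KO libraries were close together, and the lowest of them lay above the WT minimum. Cacna1b had a log2 fold change of 0.10 (SE 0.0852, unadjusted p = 0.227, edgeR adjusted p = 1) in Fmr1 KO mice and of 0.06 in Shank3 KO mice against WT.

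App, the amyloid precursor protein at the cell surface and the steadiest member, ran from 1041 to 1212 CPM (median 1161) in Fmr1 KO, from 1101 to 1174 CPM (median 1143) in Shank3 KO and from 1050.4 to 1189.5 CPM (median 1146) in WT mice. The groups overlapped throughout, with log2 fold changes of 0.01 (-0.12 to 0.14) in Fmr1 KO mice and 0.00 (-0.12 to 0.13) in Shank3 KO mice against WT, and 0.00 (-0.12 to 0.13) between the lines. Lrp1, an endocytic receptor of the LDL receptor family, was at -0.03 in Fmr1 KO mice and -0.07 in Shank3 KO mice against WT. Huwe1, a large ubiquitin ligase, was at -0.01 (-0.15 to 0.12) and -0.01 (-0.14 to 0.12) in the same 2 comparisons, and Herc1, another, at 0.03 and -0.05.

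**Figure D2:**
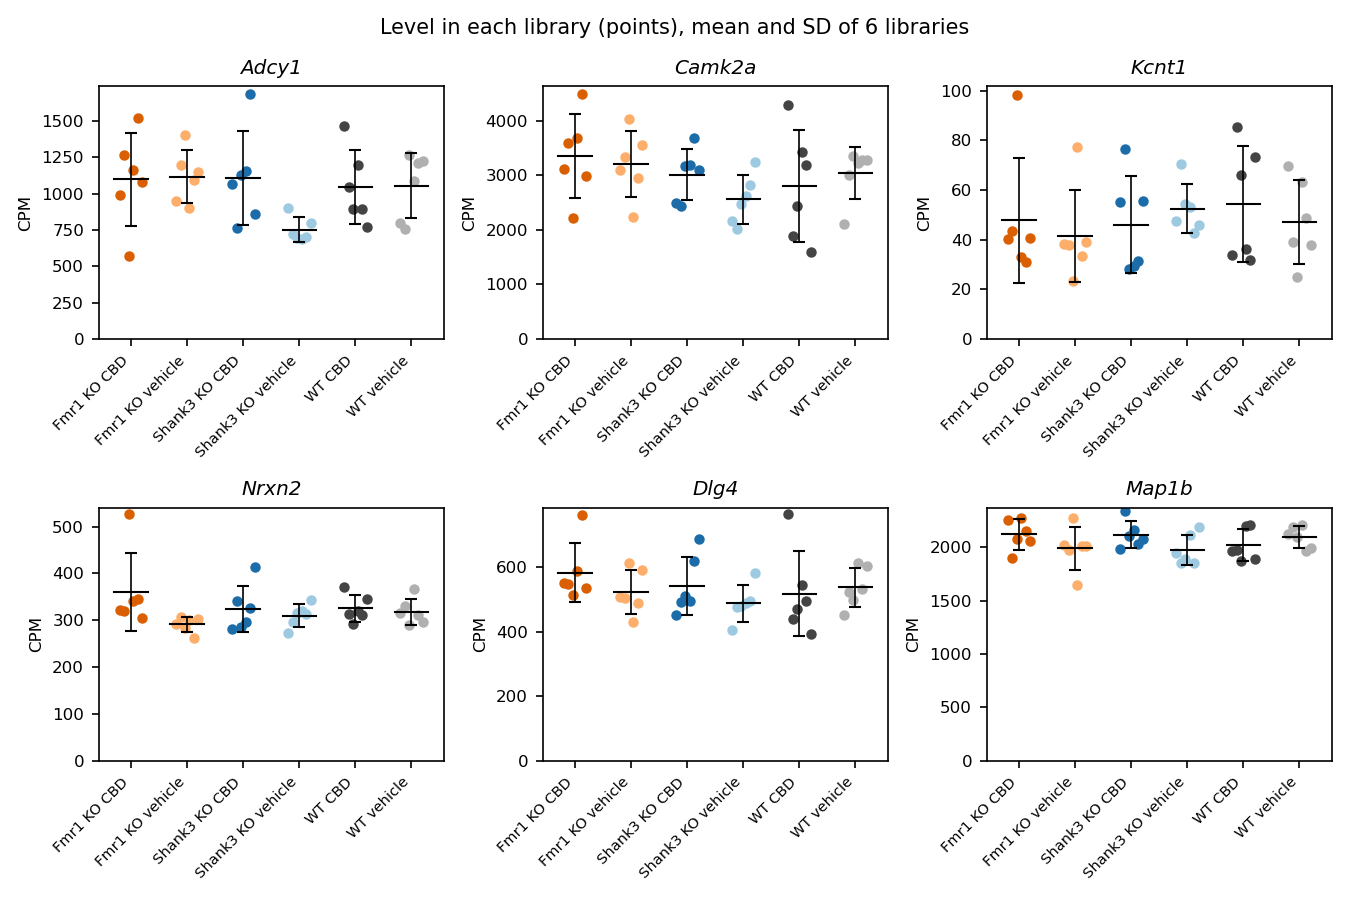
CPM (y axis, from 0) in each library of the 6 groups (x axis) for Adcy1, Camk2a, Kcnt1, Nrxn2, Dlg4 and Map1b; lines are the mean and SD of 6 libraries. Adcy1 in Shank3 KO vehicle mice lies at 685 to 902 CPM, below all Fmr1 KO vehicle libraries, and single libraries stand high in Kcnt1 and Nrxn2 of Fmr1 KO CBD mice.

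The genotype comparisons were repeated under CBD. No member was called by edgeR in Fmr1 KO against WT mice (0.0331% of all genes called), in Shank3 KO against WT mice (0.0425%) or in Fmr1 KO against Shank3 KO mice (0.0189%), nor by DESeq2 or limma voom. At an unadjusted p under 0.05 there were 0 members in each, against 1567, 350 and 902 of all genes in that order. Members lay above 0 in 23, 20 and 19 of 30, with medians of 0.06, 0.03 and 0.06. Leaving out the 5 libraries low in long genes gave 22, 17 and 18 of 30, with medians of 0.05, 0.01 and 0.05. In that order 1, 0 and 2 members then had an unadjusted p under 0.05, against 2395, 564 and 1686 of all genes. They were Dlg4 in Fmr1 KO against WT mice, and Nrxn2 at 0.24 and Cacna1b at 0.19 between the lines. Without Fmr1 KO CBD replicate 5 alone the median between the lines was -0.01. With the tissue marker covariates 19, 15 and 17 of 30 members lay above 0, and Camk2a had an unadjusted p under 0.05 in Fmr1 KO against WT mice, at 0.22, and between the lines, at 0.25. Complete separation of the libraries was found in 0 members, against 0.184%, 0.0897% and 0.184% of all genes. The smallest p in Fmr1 KO against WT mice was that of Cacna1b, which ran from 231 to 381 CPM (median 289) in Fmr1 KO CBD and from 234 to 290.3 CPM (median 266) in WT CBD mice, at 0.16 (SE 0.0852, unadjusted p = 0.0702, edgeR adjusted p = 0.701) and, with the tissue marker covariates, 0.01. Adcy1 did not stand lower in Shank3 KO mice given CBD. It ran from 569.5 to 1518 CPM (median 1120.1) in Fmr1 KO, from 765 to 1684 CPM (median 1095) in Shank3 KO and from 769 to 1465 CPM (median 969.8) in WT mice given CBD, with a log2 fold change of -0.01 between the lines and of 0.09 in Shank3 KO against WT mice. These were -0.20 and 0.28 without the 5 libraries.

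By role, the adhesion genes and Dlg4 had the highest median in Fmr1 KO against WT mice under CBD. All 5 lay above 0, with a median of 0.14, against 1 of 5 and a median of -0.04 under vehicle. With the 5 libraries left out it was 5 of 5 and a median of 0.18 under CBD, against 3 of 5 and 0.02 under vehicle. With the tissue marker covariates it was 3 of 5 and 0.01 under CBD, against 1 of 5 and -0.09 under vehicle. Nrxn2 ran from 305 to 528 CPM (median 331) in Fmr1 KO, from 281 to 414 CPM (median 311) in Shank3 KO and from 293 to 371 CPM (median 316) in WT mice given CBD, and Dlg4 from 512 to 762 CPM (median 549), from 452 to 687 CPM (median 502) and from 392 to 765 CPM (median 483) in the same order. Both overlapped between the genotypes, with single high libraries in the Fmr1 KO group for both genes and in the WT group for Dlg4. The log2 fold changes in Fmr1 KO against WT mice were 0.14 (-0.05 to 0.34) for Nrxn2, 0.17 (-0.09 to 0.43) for Dlg4, 0.14 for Nlgn1, 0.12 for Nlgn2 and 0.13 for Nlgn3. Dlg4 was at 0.22 (unadjusted p = 0.0369, edgeR) without the 5 libraries, and Nrxn2 at 0.00 with the tissue marker covariates. The dynein gene Dync1h1 was at 0.11 (-0.04 to 0.27).

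Under CBD, Map1b ran from 1897 to 2278 CPM (median 2117) in Fmr1 KO, from 1979 to 2338 CPM (median 2095) in Shank3 KO and from 1876 to 2212 CPM (median 1970.3) in WT mice. Camk2a ran from 2211 to 4491 CPM (median 3352), from 2438 to 3678 CPM (median 3127) and from 1588 to 4291 CPM (median 2814), and Mtor from 141 to 195 CPM (median 147), from 138 to 180.1 CPM (median 149) and from 142 to 178 CPM (median 144) in the same order. The ranges of all 3 genes overlapped between every pair of genotypes, that of Camk2a in WT mice being the widest. App ran from 1062 to 1246 CPM (median 1159.5) in Fmr1 KO, from 982 to 1247 CPM (median 1089.8) in Shank3 KO and from 1068 to 1207 CPM (median 1121) in WT mice given CBD, with a log2 fold change of 0.03 (-0.10 to 0.16) in Fmr1 KO against WT mice. The smallest p in Shank3 KO against WT mice was that of Agap2, at 2.77 ± 0.948 CPM in Shank3 KO and 2.12 ± 0.374 CPM in WT mice (SD, n = 6 each) and a log2 fold change of 0.39 (SE 0.221, unadjusted p = 0.0827, edgeR adjusted p = 0.9999). Kcnt1 followed at -0.29 (-0.89 to 0.31) and Pik3cb at 0.07 (-0.07 to 0.20).

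Averaged over vehicle and CBD, 12 libraries a genotype narrowed the median half-width of the 95% interval to 0.154, against 0.217 with 6. Still 0 of 30 members were called by edgeR in Fmr1 KO against WT (0.0378% of all genes called), in Shank3 KO against WT (0.0614%) or in Fmr1 KO against Shank3 KO mice (0.0378%). The interval stayed within 0.5 of 0 for 29, 29 and 27 of 30 members in that order. Cacna1b had an unadjusted p of 0.0355 in Fmr1 KO against WT mice at a log2 fold change of 0.13 (edgeR adjusted p = 0.955), which was 0.06 (unadjusted p = 0.247) with the tissue marker covariates and 0.10 (unadjusted p = 0.112) without the 5 libraries low in long genes. Adcy1 had 0.28 (unadjusted p = 0.0452, edgeR adjusted p = 0.587) between the lines, and 0.19 (unadjusted p = 0.165) without those libraries. In their absence Ppp2ca in Fmr1 KO against WT mice, at 0.12, and Cacna1b between the lines, at 0.12, had an unadjusted p under 0.05.

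CBD against vehicle within a genotype asked whether treatment moves these messengers. None of the 30 members was called in Fmr1 KO, Shank3 KO or WT mice by edgeR, and 0% of all genes were called in each. At an unadjusted p under 0.05 there were 558, 934 and 567 genes in that order, of which 1, 1 and 0 were members. DESeq2 called 0 genes in each, and limma voom 0, 1 and 0, none of them a member. Members lay above 0 in 21, 24 and 15 of 30, with medians of 0.04, 0.06 and 0.01. With the 5 libraries low in long genes left out it was 18, 19 and 13 of 30, with medians of 0.02, 0.03 and 0.00, and with the tissue marker covariates 18, 20 and 22 of 30. The median in WT mice was -0.04 without WT CBD replicate 1. No member separated CBD from vehicle libraries completely, which 0.052%, 0.241% and 0.052% of all genes did.

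Nrxn2 was the member with the smallest p in Fmr1 KO mice. It ran from 305 to 528 CPM (median 331) under CBD and from 262 to 306 CPM (median 296) under vehicle. The groups overlapped at their edges, and replicate 3 of the CBD group stood far above the others. Nrxn2 had a log2 fold change of 0.30 (SE 0.0971, unadjusted p = 0.00430, edgeR adjusted p = 0.9997), which was 0.17 (unadjusted p = 0.0403, edgeR) without that library, 0.18 (unadjusted p = 0.0339) with the tissue marker covariates and 0.32 (unadjusted p = 0.00230) without the 5 libraries low in long genes. It was 0.06 in Shank3 KO and 0.03 in WT mice. The difference of the CBD effect between Fmr1 KO and WT mice was 0.27 (SE 0.137, unadjusted p = 0.0603, edgeR adjusted p = 0.993), and 0.14 (unadjusted p = 0.215) with the covariates. The effect in Fmr1 KO minus that in Shank3 KO mice was 0.24 with all libraries and 0.33 (unadjusted p = 0.0209, edgeR) without the 5.

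Adcy1 was the member with the smallest p in Shank3 KO mice. It ran from 765 to 1684 CPM (median 1095) under CBD and from 685 to 902 CPM (median 711) under vehicle. The groups overlapped, with 4 of 6 CBD libraries above every vehicle library. It had a log2 fold change of 0.56 (SE 0.189, unadjusted p = 0.00564, edgeR adjusted p = 0.963), 0.39 without Shank3 KO CBD replicate 5, and 0.24 (unadjusted p = 0.0594) with the tissue marker covariates. The dentate granule marker sum was 435 to 878 CPM in Shank3 KO CBD and 363 to 551 CPM in Shank3 KO vehicle libraries, and its part in the result was not tested beyond that. The CBD effect on Adcy1 differed from that in WT mice by 0.58 (unadjusted p = 0.0385, edgeR adjusted p = 0.912), and the effect in Fmr1 KO minus that in Shank3 KO mice was -0.59 (unadjusted p = 0.0356, edgeR adjusted p = 0.9999). With the tissue marker covariates these differences were 0.13 (unadjusted p = 0.465, edgeR) and -0.15 (unadjusted p = 0.384). Without Shank3 KO CBD replicate 5 they were 0.41 (unadjusted p = 0.121, edgeR) and -0.42 (unadjusted p = 0.112), and without the 5 libraries low in long genes 0.71 and -0.78. All these values of Adcy1 share the 6 Shank3 KO vehicle libraries with its genotype comparisons under vehicle, so they are not independent of those. Over all genes these differences of effects were called in 0% for Fmr1 KO minus WT, Shank3 KO minus WT and Fmr1 KO minus Shank3 KO, with 635, 1004 and 457 genes at an unadjusted p under 0.05 and 0 calls by DESeq2 or limma voom.

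Nlgn2 and Map1b followed Nrxn2 by p in Fmr1 KO mice, with Nlgn2 at 0.19 (-0.08 to 0.46). In Shank3 KO mice Tsc2 and Map1b followed Adcy1, with Tsc2 at 0.17 (-0.09 to 0.42). The smallest p-values in WT mice were those of Nf1 at 0.06 (-0.06 to 0.18), Kcnt1 at 0.27 (-0.32 to 0.87) and Ank3 at 0.09 (-0.13 to 0.32). Every one of these intervals holds 0.

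Map1b and Dlg4 were at 0.09 (-0.06 to 0.25) and 0.15 (-0.11 to 0.42) for CBD against vehicle in Fmr1 KO mice. In Shank3 KO mice they were at 0.10 and 0.15, and in WT mice at -0.05 and -0.06. App was at 0.01 in Fmr1 KO, at -0.05 in Shank3 KO and at -0.01 in WT mice. For Mtor the log2 fold changes were 0.04, 0.09 and 0.00 in the same order, and for Camk2a 0.06, 0.23 and -0.12, each with an interval that holds 0.

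The sexes received different doses, so the CBD effect was also fitted within each sex over the 3 genotypes, with 9 CBD and 9 vehicle libraries a sex. No member was called by edgeR in females (0.0142% of all genes called) or in males (0%). In females 0 of 30 members and 651 of all genes had an unadjusted p under 0.05. In males it was 5 of 30 members and 1476 of all genes, or 6.97% of them, with 0 genes called by DESeq2 or limma voom. The 5 members were Nrxn2, Nlgn2, Lrp1, Bsn and Kif1a, all with log2 fold changes above 0. Without the 5 libraries low in long genes, 1 of 30 members, Nrxn2, had an unadjusted p under 0.05, against 3.96% of all genes.

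In males, Nrxn2 ran from 311 to 528 CPM (median 345) under CBD and from 262 to 366 CPM (median 311) under vehicle. The groups overlapped. Its log2 fold change was 0.26 (SE 0.0759, unadjusted p = 0.00210, edgeR adjusted p = 0.709), against 0.00 (-0.16 to 0.16) in females. In males it was 0.17 without Fmr1 KO CBD replicate 3, which held the 528 CPM and is not among the 5 libraries low in long genes. With the tissue marker covariates it was 0.20 (unadjusted p = 0.00183, edgeR). Nlgn2 ran from 185 to 306 CPM (median 203) under CBD and from 164 to 238 CPM (median 186) under vehicle in males. At 0.28 (SE 0.108, unadjusted p = 0.0138, edgeR adjusted p = 0.709) it lost its low p without WT CBD replicate 1 (0.19, unadjusted p = 0.0590). Lrp1 was at 0.20, Bsn at 0.28 and Kif1a at 0.20 in males, and at -0.04, -0.10 and -0.05 in females. Without the 5 libraries the values in males were 0.26 (unadjusted p = 0.00329, edgeR) for Nrxn2, 0.10 (unadjusted p = 0.221) for Nlgn2, 0.08 for Lrp1, 0.09 for Bsn and 0.08 for Kif1a. Whether the effect differs between the sexes was not tested.

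**Figure D3:**
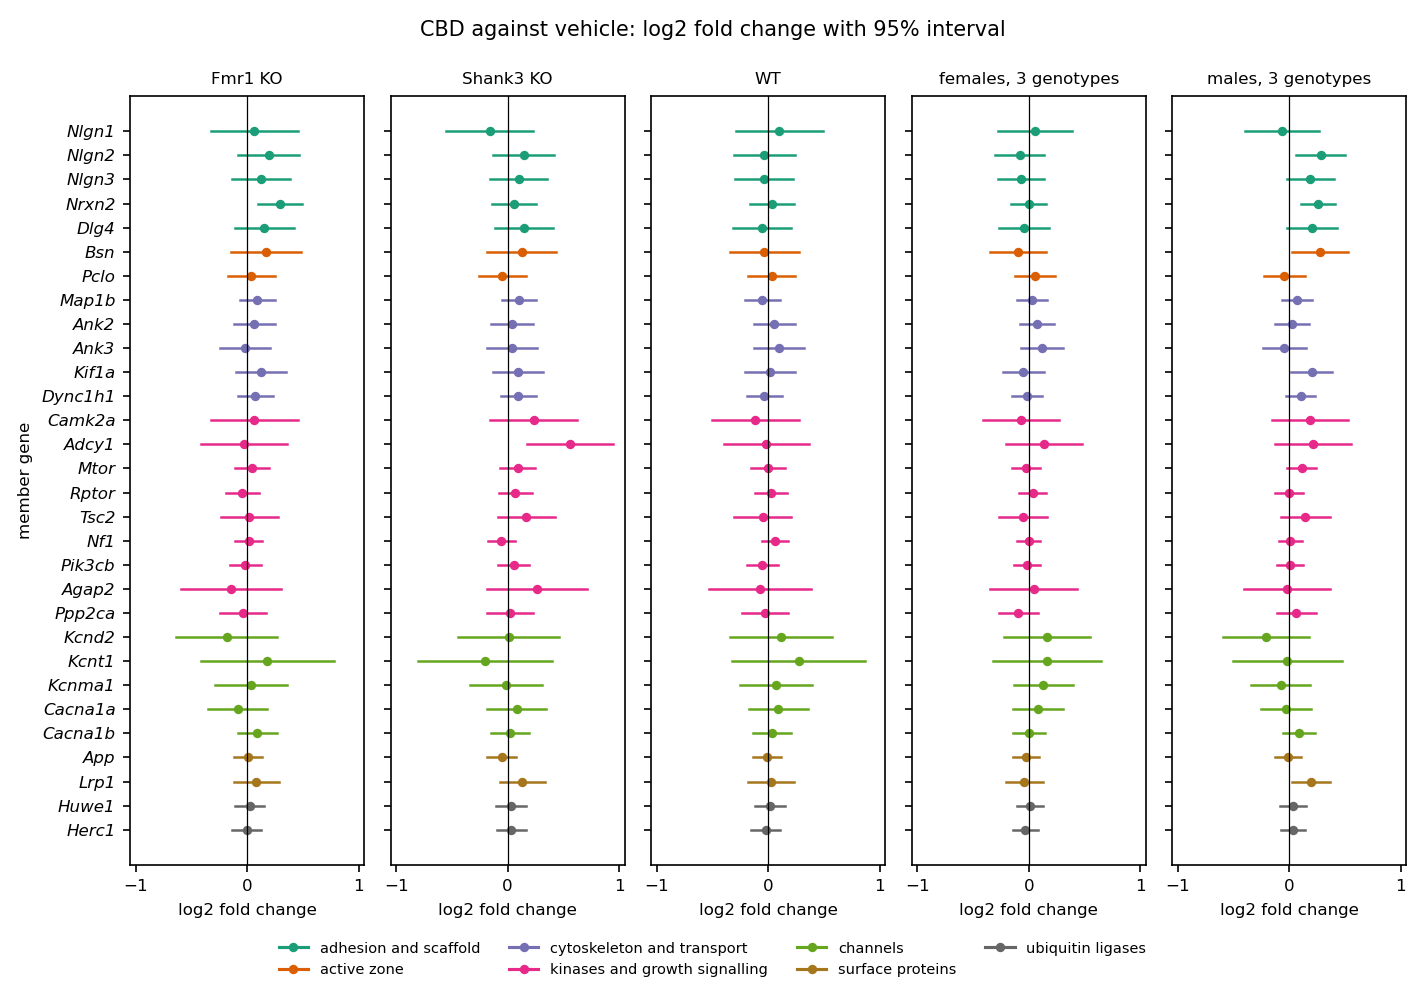
Log2 fold change of CBD against vehicle (x axis) of the 30 members (y axis, coloured by role) in each genotype and in each sex over the 3 genotypes. Points are edgeR estimates and lines 95% intervals; no member was called, and in males Nrxn2 at 0.26 and 4 other members, all of genes under 200 kb, have intervals above 0.

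The members followed the pattern by gene length. Of the 30, 10 spanned at least 200 kb (Nlgn1, Kcnma1, Ank3, Ank2, Kcnd2, Pclo, Cacna1a, Rptor, Nf1 and App), and 20 were shorter. This division was made after the values had been seen and is given as a description. The members' own median of the long minus that of the shorter genes was -0.61 in WT CBD replicate 1, -0.49 in Fmr1 KO CBD replicate 5, -0.41 in WT vehicle replicate 6, -0.29 in WT vehicle replicate 4 and -0.28 in Shank3 KO CBD replicate 6, and lay between -0.08 and 0.35 in the other 31 libraries. The 5 libraries had been picked by a value below -0.2 in the other genes, so the sign of that value in them was fixed by the choice.

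Directions by length turned with these libraries. In Fmr1 KO against WT mice under vehicle, 10 of 10 long and 7 of 20 shorter members lay above 0, and so did 78.8% of the other long genes. Without the 5 libraries it was 3 of 10 long and 15 of 20 shorter members, and 22.5% of the other long genes. In Shank3 KO against WT mice under vehicle it was 8 of 10 and 3 of 20 with all libraries, and 2 of 10 and 6 of 20 without the 5. For CBD against vehicle in males it was 2 of 10 and 18 of 20 with all libraries, and 9 of 10 and 14 of 20 without the 5. In females, where none of the treated libraries was left out, it was 9 of 10 and 6 of 20 with all libraries, and 7 of 10 and 5 of 20 without the 5.

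**Figure D4:**
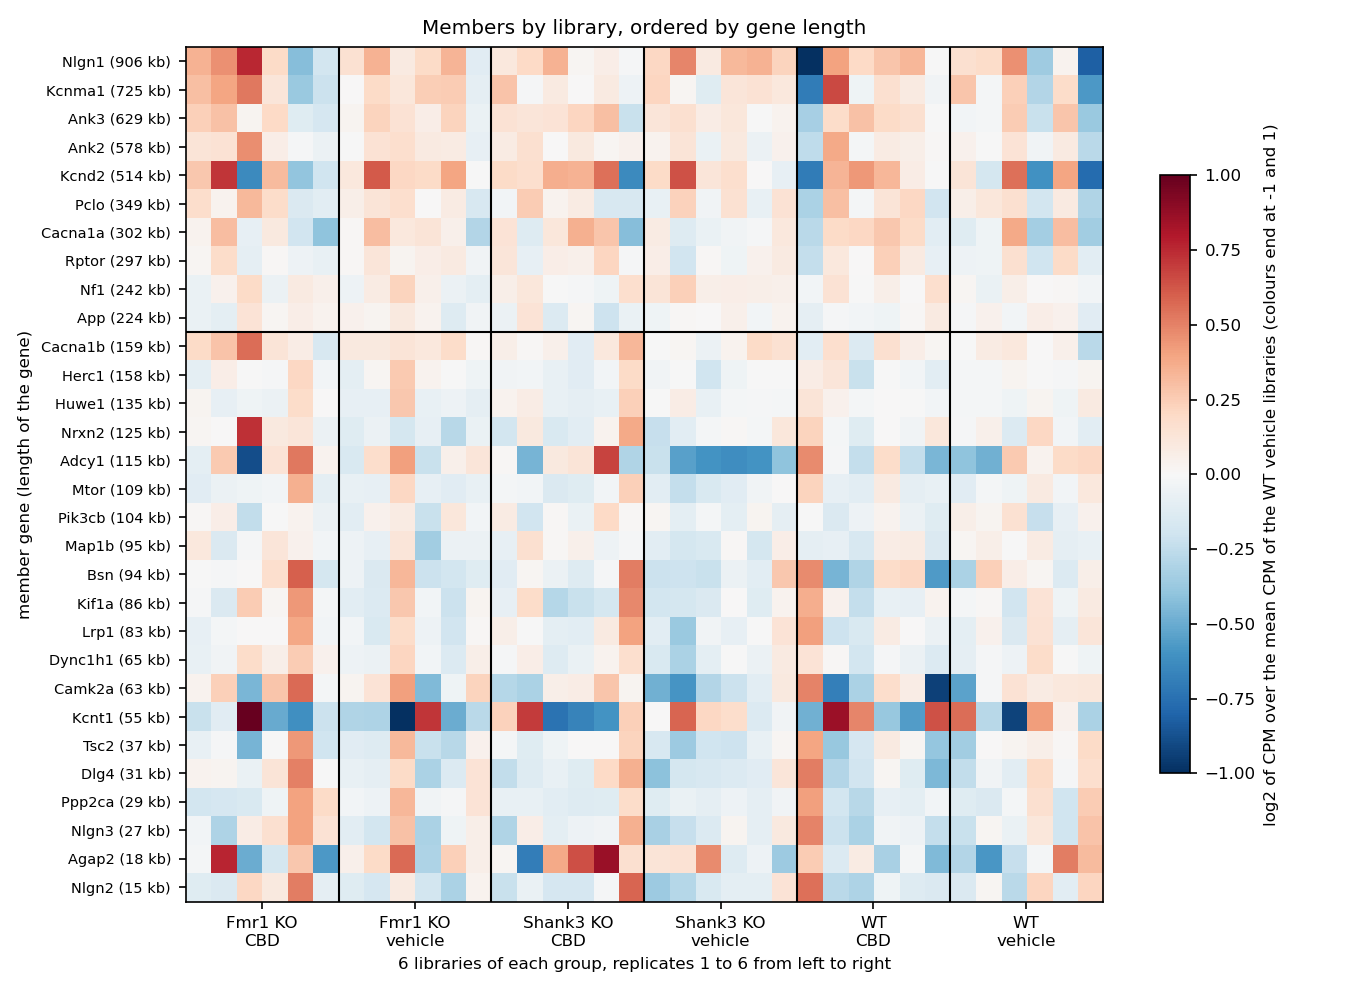
Log2 ratio of CPM to the mean of the WT vehicle libraries (colour, ending at -1 and 1) for the 30 members, ordered from the longest gene at the top, in the 36 libraries by group; the horizontal line marks 200 kb. In WT CBD replicate 1 and Fmr1 KO CBD replicate 5, long members are low and most short ones high, and Adcy1 is low across the Shank3 KO vehicle libraries.

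**Figure D5:**
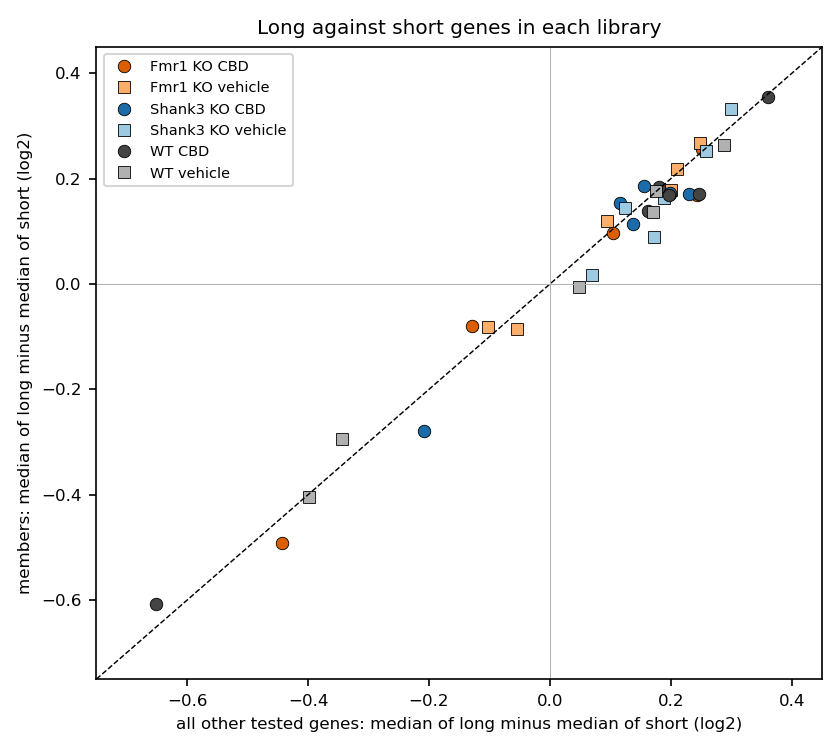
Median log2 level of long minus short genes in each of the 36 libraries, for the members (y axis) and for all other tested genes (x axis), with the dashed line at equal values; circles are CBD and squares vehicle libraries. The 5 libraries below -0.2 on the x axis reach down to -0.65, and their member values run from -0.61 to -0.28.

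Pairs of members were correlated over the 36 libraries, with log2 levels taken as deviations from the group mean. Mtor and Lrp1 correlated at r = 0.92 (Spearman's rho = 0.87, r = 0.89 without the 2 farthest libraries) and Ank3 and Kcnd2 at r = 0.92 (rho = 0.93, r = 0.89), each with a permutation p of 1e-05, the smallest these permutations can give, and an adjusted p of 0.000104. Nlgn1 and Ppp2ca ran against each other (r = -0.81, rho = -0.68, r = -0.71, adjusted permutation p = 0.000316). Of 435 pairs, the 45 of 2 long members had a median r of 0.54, the 190 of 2 short ones 0.38 and the 200 mixed ones -0.24. An adjusted p under 0.05, by 100000 permutations within groups and adjusted over the 435 pairs, was reached by 28 positive pairs of long members, by 91 positive and 8 negative pairs of short ones, and by 7 positive and 65 negative mixed pairs.

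Camk2a and Kcnt1 are both short and still ran in opposite directions, at r = -0.80 (rho = -0.77, r = -0.78 without the 2 farthest libraries, adjusted permutation p = 0.000104). The pair of Camk2a and Tsc2 had r = 0.88 (rho = 0.87, r = 0.86, adjusted permutation p = 0.000104). The libraries share depth, tissue make-up and the pattern by gene length, and the correlations were not separated from these.

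Other genes of the same pathways were taken from lists that were written with earlier results of these data known. Of 65 further FMRP-bound messengers, 64 were tested, and 0 were called in either direction in any of the comparisons between genotypes or treatments. Over all genes, at most 0.0614% were called in any of these comparisons. Above 0 lay 42 of 64 in Fmr1 KO against WT (median 0.03), 21 in Shank3 KO against WT (median -0.06) and 51 in Fmr1 KO against Shank3 KO mice under vehicle (median 0.06). Over all genes 50.5%, 49.9% and 49.6% lay above 0 in that order. The counts of these lists come from the main fit and were not repeated with the tissue marker covariates or without the 5 libraries low in long genes. The smallest p between the lines was that of Camk2b, the beta subunit of the kinase of Camk2a, at 0.35. Of 33 genes of metabotropic glutamate and mTOR signalling to translation, all tested, 0 were called. Above 0 lay 22 (median 0.04), 15 (-0.02) and 24 (0.07) in the same order, with Eef2k, the kinase that halts elongation, at 0.22 between the lines. Of 30 partners of neuroligins, neurexins and the active zone 27 were tested and 0 called. Above 0 lay 22 (median 0.09), 18 (0.07) and 14 (0.01), with Ppfia3, a liprin of the active zone, at 0.25 between the lines.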

How the data were processed

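Raw read counts per gene were deposited by the authors for 36 libraries of total RNA, without normalization. Per the submitters' processing notes, FastQC, STAR 2.7.11b, featureCounts 2.0.8 and build GRCm39 were used; no annotation release or strand setting is stated in the sources used here. The deposited gene lengths lay within 5% of the whole gene span for 98.1% of 20379 protein-coding genes, so counts were read as covering introns. Symbols, overlaps and transcripts came from the GENCODE vM21 annotation (build GRCm38). It named 51498 identifiers, which held 99.0% of counts.

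In R 4.3.3, edgeR 4.0.16 was run on the counts: filterByExpr left 21172 genes, libraries were scaled by TMM, and a quasi-likelihood model with a coefficient per group and an additive sex term was fitted to all 36 libraries. A model of group by sex gave the values per sex, sex being taken from a deposited sample table. p-values were two-sided and Benjamini-Hochberg adjusted over all genes within a comparison, and a call needed an adjusted p under 0.05. SEs came from the information matrix scaled by the moderated quasi-likelihood variance. CPM used TMM library sizes. DESeq2 1.42.0 and limma 3.58.1 (voom with quality weights) were alternatives. The fits were tested on simulated data. Labels name each library as a separate animal code; the correlation of same-numbered libraries exceeded 0.1 in 33 of 90 pairs (median 0.0065), so numbers were not taken as pairs.

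All 30 members are named, by role. The members, gene lists, comparisons and alternatives were chosen with earlier results of these data known. The animal codes of 11 of 12 WT and all Fmr1 KO libraries begin with the same letters and those of Shank3 KO libraries with others; their meaning is not stated in the sources used here.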

Additional observations from a re-analysis of the deposited data

Results flagged for a closer look

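In 31 of 180 sets of 6 libraries (30 members in 6 groups), 1 library stood apart from the other 5: its gap to the nearest was over 0.625 of the whole range. Chance gives about 1 in 20 sets, and members that vary together share their libraries. In Shank3 KO CBD replicate 6 this held for Nlgn2 at 306 CPM, Bsn at 969 CPM, Mtor at 180.1 CPM, Tsc2 at 146 CPM, Ppp2ca at 224 CPM, Lrp1 at 811 CPM and Herc1 at 458 CPM, above the other 5 libraries, and for Ank3 at 1156 CPM, below them. In Fmr1 KO CBD replicate 5 this held for Dlg4 at 762 CPM, Bsn at 1029 CPM, Mtor at 195 CPM, Lrp1 at 802 CPM and Huwe1 at 758 CPM, above the other 5 libraries. In Fmr1 KO vehicle replicate 3 this held for Bsn at 857 CPM, Mtor at 176 CPM, Huwe1 at 801 CPM and Herc1 at 479 CPM, above the other 5 libraries. In Fmr1 KO CBD replicate 3 this held for Nrxn2 at 528 CPM, Ank2 at 2246 CPM and Kcnt1 at 98.1 CPM, above the other 5 libraries. In WT CBD replicate 1 this held for Nlgn2 at 299 CPM, Nlgn3 at 73.2 CPM and Ppp2ca at 263 CPM, above the other 5 libraries. The single cases were Bsn at 817 CPM in Shank3 KO vehicle replicate 6 (high), Dync1h1 at 935 CPM in WT vehicle replicate 4 (high), Camk2a at 2101 CPM in WT vehicle replicate 1 (low), Rptor at 164 CPM in Fmr1 KO CBD replicate 2 (high), Kcnd2 at 2378 CPM in Shank3 KO vehicle replicate 2 (high), Kcnt1 at 77.4 CPM in Fmr1 KO vehicle replicate 4 (high), Cacna1b at 214 CPM in WT vehicle replicate 6 (low) and Herc1 at 349 CPM in Shank3 KO vehicle replicate 3 (low). These libraries include all 5 in which long genes were low against short ones. Leaving out any of them called no member in any comparison.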

How the results depend on the processing

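No member was called in any of the 18 comparisons under any alternative run for it, and the lowest adjusted p of a member over all of them was 0.243. The alternatives were DESeq2 size factors, a filter that kept every gene with a count, a filter of 10 counts in 30 libraries, DESeq2's Wald test, limma voom with quality weights, no sex term and the compared groups alone (both run for the 15 comparisons not split by sex), 5 tissue marker covariates, each library left out in turn, and, chosen after seeing the data, a gene length covariate and leaving out the 5 libraries low in long genes. Of 14850 values of single members, 83 turned their sign by more than 1 SE without passing the threshold, 48 of them with the tissue marker covariates, 23 without the 5 libraries, 11 with the length covariate and 1 without Fmr1 KO CBD replicate 5. With the replicate number of the labels in place of sex (replicate block), 0 members were called in 15 comparisons, and the medians under vehicle were 0.02 in Fmr1 KO against WT, -0.04 in Shank3 KO against WT and 0.04 in Fmr1 KO against Shank3 KO mice. For 9 of 36 libraries, the mean correlation with libraries of the other groups was highest for their own replicate number. The median in Fmr1 KO against WT mice under vehicle ran from -0.01 (without Fmr1 KO vehicle replicate 3) to 0.04 with single libraries left out, that in Fmr1 KO against Shank3 KO mice under CBD was -0.01 without Fmr1 KO CBD replicate 5, and that of CBD in WT mice -0.04 without WT CBD replicate 1.

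Counts over all genes moved more. In Fmr1 KO against Shank3 KO mice, edgeR, DESeq2 and limma voom called 2, 8 and 5 genes under vehicle, 4, 7 and 9 under CBD, and 8, 18 and 43 over both treatments. Leaving out the 5 libraries gave 2 under CBD and 14 over both treatments, the tissue marker covariates 5 and the replicate block 1 under vehicle, and the compared groups alone 1 under CBD. In Fmr1 KO against WT mice, 7 calls under CBD became 4 with the stricter filter or the compared groups alone, and 8 over both treatments became 4 with the stricter filter and 13 with DESeq2. In Shank3 KO against WT mice, 9 calls under CBD became 5 with the compared groups alone. Between females and males, 7 became 3 with the stricter filter and 11 with limma voom or the length covariate. For CBD, 3 calls in females became 0 with the stricter filter, 7 with DESeq2 or limma voom and 5 with the length covariate, and 0 calls became 1 in males with the length covariate and in Shank3 KO mice with limma voom. Depth limits Agap2 most, which held 2244 counts over the 36 libraries. With a median half-width of the 95% interval of 0.217 for 6 mice against 6, smaller differences were not resolved, and a p above the threshold does not show that groups are alike.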

Other observations

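Between females and males under vehicle, over the 3 genotypes, 0 of 30 members were called by edgeR, with 0.0331% of all genes called and 581 genes at an unadjusted p under 0.05. Members lay above 0 in 15 of 30, with a median of 0.00, and in 20 of 30 without the 5 libraries low in long genes. Kcnt1 had the smallest p of them, at -0.41 (SE 0.238, unadjusted p = 0.0947, edgeR adjusted p = 0.99996). It ran from 24.8 to 53.2 CPM (median 38.9) in females and from 23.3 to 77.4 CPM (median 54.5) in males, so the sexes overlapped. The second motif reported for FMRP in a human cell line, counted as ACTG or ACTT on the coding strand, occurred at a median of 8.80 per kb of coding sequence in the members and 8.32 per kb over all 14498 genes, with 17 of 30 members above that.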
